A study of Mus musculus with 9 samples.

Results

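The genes described here are 9 that the literature names as direct targets of the muscle microRNA *miR-1*: *Twf1*, *Coro1c*, *Tagln2*, *Ptma*, *Anp32b*, *G6pdx*, *Hdac4*, *Hspd1* and *Bdnf*. They were taken by name, and no measured value entered the rule, although earlier results of these data were known when they were chosen. Of the 9, 8 had a probe set listed for that gene alone and were measured, among 22180 genes in all, and *G6pdx* was not analysed here because no such probe set carried its symbol or gene ID in the tables used. Whole hearts of mouse pups at postnatal day 2 were profiled on 9 Affymetrix Gene ST arrays, 3 for each genotype. *miR-1-1* null pups lacked both copies of *miR-1-1* with no change of *miR-1-2* named in the labels, double-heterozygous pups carried 1 mutant and 1 intact copy of each of *miR-1-1* and *miR-1-2*, and wild-type pups carried both genes intact. All pups were of a mixed 129 and C57BL/6 background and untreated. In the *miR-1-1* allele a floxed neomycin cassette under a pGK promoter stands in place of the precursor, so the loss is a germline one, in every cell. The genotypes are labelled, but litters are not, so p-values measure only the spread between these hearts. Levels are log2 values after RMA, on which a difference of 1 is a doubling of signal.

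A microRNA guides an Argonaute protein to sites in the 3′ UTR of messenger RNAs that pair with its seed, the bases near its 5′ end, and target mRNAs are then translated less and degraded faster. Loss of a microRNA is therefore looked for as a rise of its targets. A target held back mainly at translation may, however, change in protein and not in mRNA, and only mRNA was measured here. By their labels, both mutant genotypes keep intact *miR-1* copies, so the comparisons are of a partial loss of *miR-1* and not of its absence. How much mature *miR-1* remained in these hearts was not analysed here. *miR-1* is transcribed from a pair of loci, each together with a member of the *miR-133a* family, and is abundant in heart and skeletal muscle. Its muscle relative *miR-206* has the same seed and is shown for that reason, beside the other arm of the deleted *miR-1-1* hairpin and a *miR-133* family member, whose seeds differ. Sequences are from RefSeq, build GRCm38.p6, 5′ to 3′, with the seed (bases 2 to 8) in capitals.
mmu-miR-206-3p: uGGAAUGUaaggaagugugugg
mmu-miR-1a-1-5p: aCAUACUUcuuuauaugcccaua
mmu-miR-133b-3p: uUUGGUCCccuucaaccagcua
The first lies at chr1:20679055-20679076, the second at chr2:180389057-180389079 and the third at chr1:20682834-20682855, all on the + strand. A site for the first seed in an mRNA reads ACAUUCC, for the second AAGUAUG and for the third GGACCAA. Of 1738 mature mouse microRNAs in the list used, 3 carry the first seed (miR-206-3p, miR-6349 and miR-6382), and 1 each carries the second and the third. That list held no entry for the 3p arm of *miR-1*, which has the first seed, so these counts are not of whole seed families. Sites in the members' UTRs were not analysed here.

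The arrays correlated with each other at 0.982 to 0.988. The probe set of *Mir1a-1*, the deleted precursor, was dim, at 0.95 to 1.29 in null, 0.92 to 1.52 in double-heterozygous and 1.29 to 2.21 in wild-type hearts, so it is a weak check of the labels. *Mir133a-2*, which is transcribed with *miR-1-1*, was at 3.07 to 4.51 in null hearts, below every double-heterozygous heart (5.33 to 6.32) and every wild-type heart (5.45 to 6.38). Double-heterozygous replicate 7 and wild-type replicate 1 had high *Xist* (8.31 and 7.74) and low Y-linked *Eif2s3y* (1.26 and 1.34), and the other 7 arrays had the reverse. The mean of 14 heart muscle markers, which averages over shifts of single genes, was 9.69 to 9.76 in null, 9.67 to 9.74 in double-heterozygous and 9.72 to 9.77 in wild-type hearts. In whole hearts, fewer cells of a type and less RNA per cell cannot be told apart.

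No member passed an adjusted p of 0.05 in either comparison with wild-type hearts (limma over all 22180 genes, Benjamini-Hochberg). *Anp32b* alone had an unadjusted p under 0.05, in both comparisons, and was the one member whose arrays did not overlap with wild-type arrays. Over all genes, 0% passed the adjusted p in null and 0.018% in double-heterozygous hearts, 5.72% and 10.6% passed the unadjusted p, and 3.63% and 5.15% were higher without overlap. Lower without overlap were 4.63% and 7.95% in the same order. No member met the study's own array criteria either (fold change above 1.5 or below 0.5 at a p under 0.0025 before adjustment), which 0.126% of all genes met in null and 0.541% in double-heterozygous hearts. With 8 members measured, 1 called at the unadjusted p and 1 without overlap are few counts to read against these shares.

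In null hearts 6 of 8 members lay above 0, with a median log2 difference of 0.077 against -0.007 over all genes. In double-heterozygous hearts 6 of 8 also lay above 0, with a median of 0.048 against -0.024 over all genes. The 2 comparisons share the wild-type arrays. Fold changes of the members ran between 0.961 and 1.21 in null and between 0.992 and 1.31 in double-heterozygous hearts. The 95% intervals, each for 1 gene and not adjusted for the number of genes, bound what could have been missed on the probe set used. In null hearts their upper ends did not go past 1.43-fold for any of the 8 (*Ptma*), and in double-heterozygous hearts not past 1.52-fold (*Anp32b*). These bounds hold for signal on the array, which can be smaller than the change in RNA, most of all for a dim gene.

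**Figure D1:**
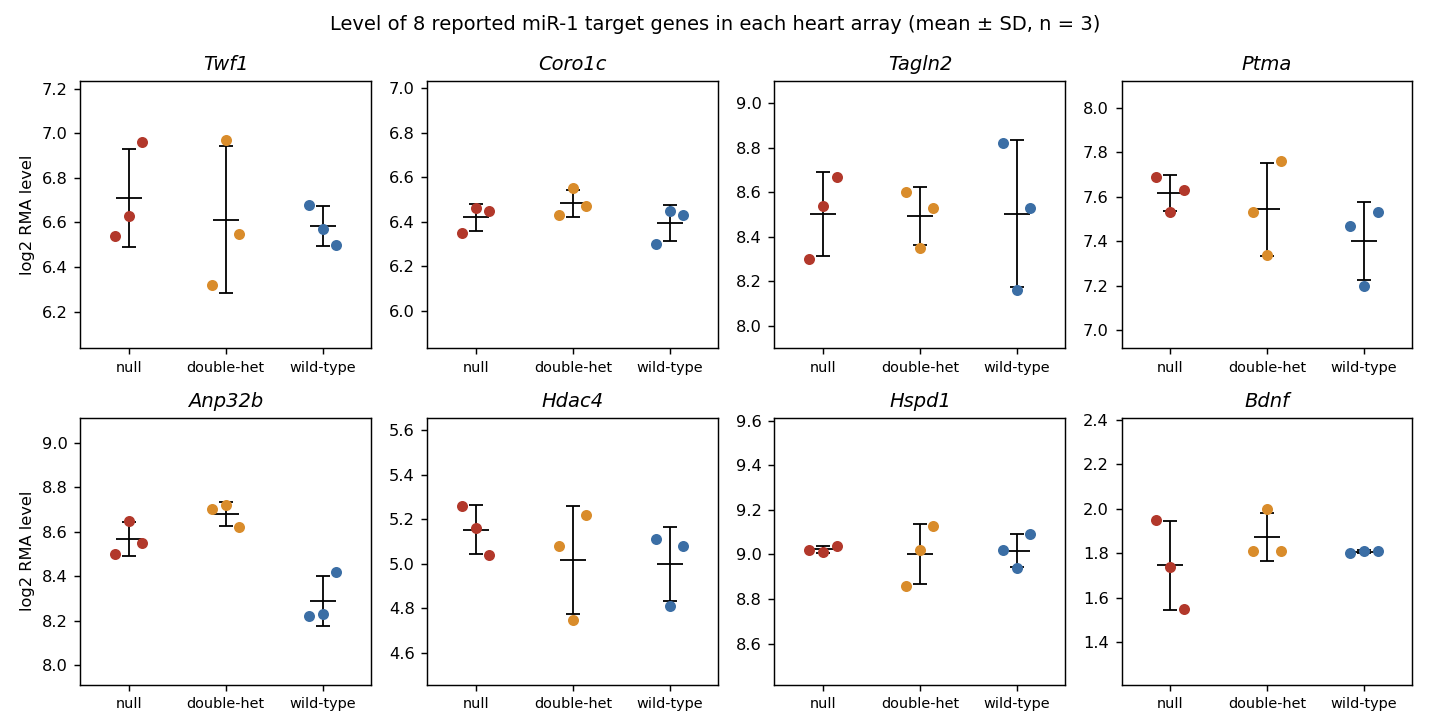
Log2 RMA level of each measured member in every array, by genotype, with the mean ± SD (n = 3). Each panel spans 1.2 log2 units. *Anp32b* is the one gene whose null and double-heterozygous arrays (8.50 to 8.72) all lie above the wild-type arrays (8.22 to 8.42).

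**Figure D2:**
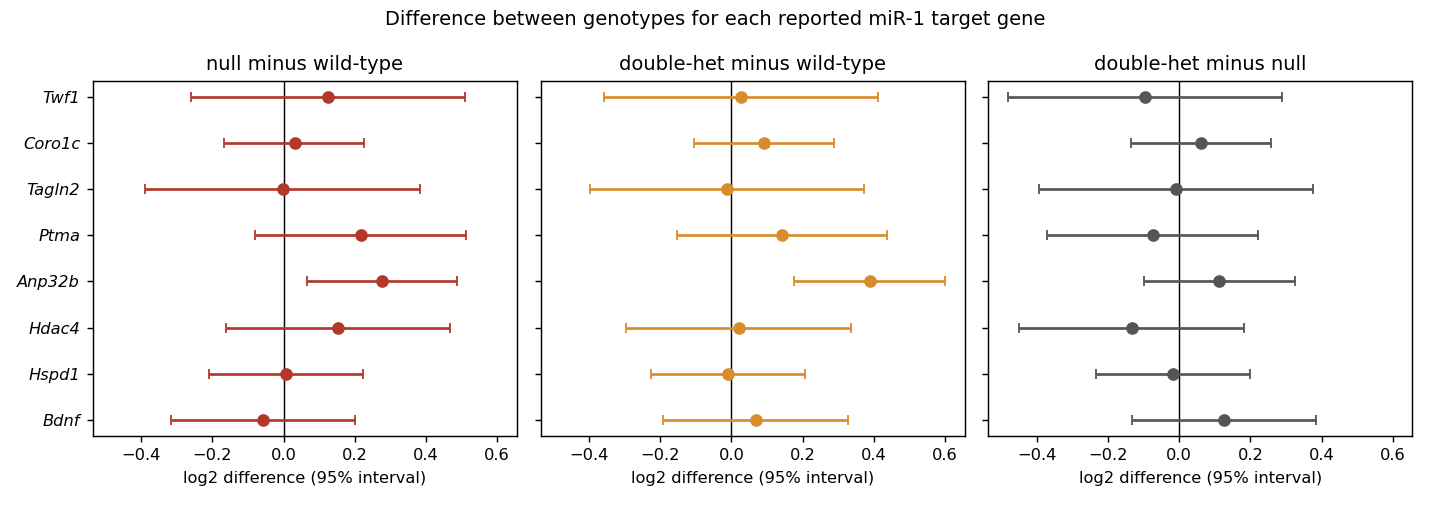
Log2 difference between genotypes for each member, with the 95% interval from limma. The *Anp32b* intervals lie above 0 in both comparisons with wild-type hearts (0.065 to 0.488 in null, 0.177 to 0.601 in double-heterozygous), and every other interval includes 0.

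*Anp32b* encodes an acidic leucine-rich nuclear phosphoprotein that binds histones and acts in cell growth. Its level was 8.50, 8.65 and 8.55 in null hearts, 8.70, 8.72 and 8.62 in double-heterozygous hearts, and 8.22, 8.23 and 8.42 in wild-type hearts. Every mutant heart was above every wild-type heart, and the highest wild-type heart was 0.079 below the lowest null heart. The means were 8.57 ± 0.080 in null, 8.68 ± 0.054 in double-heterozygous and 8.29 ± 0.112 in wild-type hearts (SD, n = 3 each). The log2 difference from wild-type was 0.28 (SE 0.094) in null hearts, or 1.21-fold, with an unadjusted p of 0.0158 and an adjusted p of 0.868 from limma. In double-heterozygous hearts it was 0.39 (SE 0.094), or 1.31-fold, with an unadjusted p of 0.00236 and an adjusted p of 0.232 from limma. By p it ranked 400 of 22180 genes in null and 222 in double-heterozygous hearts.

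Set together, the 6 mutant hearts were above the 3 wild-type hearts in *Anp32b* by 0.33 (95% interval 0.15 to 0.52), with an unadjusted p of 0.00254 and an adjusted p of 0.388 from limma. Of all genes, 0.00902% passed the adjusted p in this contrast, 8.52% the unadjusted p, and 1.37% were higher in all 6 mutant hearts without overlap. The exact two-sided permutation test of 6 against 3 gave p = 0.0238, the smallest it can give, and that over the 3 genotypes gave p = 0.00714, where the smallest is 0.00357. The first value follows from the lack of overlap alone. Neither was adjusted over the 8 members, whose next smallest p-values in these exact tests were 0.19 (*Ptma*) and 0.33 (*Coro1c*). The moderated F test over the 3 genotypes gave an adjusted p of 0.420, and 0.018% of all genes passed it. With 3 against 3 hearts the exact test cannot go below 0.1, which was its value for *Anp32b* in each comparison with wild-type. The unadjusted p in null hearts was above 0.05 without wild-type replicate 1 (0.0506, difference 0.24) and without null replicate 5 (0.0560, difference 0.23), and over the 7 arrays with Y-linked genes alone (0.062, difference 0.24).

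A second probe set of *Anp32b* did not give the same size. It read 8.53, 8.54 and 8.50 in null hearts, 8.44, 8.46 and 8.62 in double-heterozygous hearts, and 8.46, 8.37 and 8.46 in wild-type hearts. Null hearts were again all above wild-type hearts, and double-heterozygous hearts overlapped with wild-type. Its log2 differences were 0.094 (95% interval -0.102 to 0.290) in null and 0.079 (-0.117 to 0.275) in double-heterozygous hearts, with adjusted p of 0.931 and 0.773 from limma over all 23521 probe sets. The gap between the 2 probe sets within an array averaged 0.042 ± 0.075 in null, 0.170 ± 0.152 in double-heterozygous and -0.140 ± 0.097 in wild-type hearts (SD, n = 3 each). Over 6 mutant against 3 wild-type hearts that gap differed by 0.25 (exact two-sided permutation test, p = 0.0238, the smallest possible), a comparison made after the probe sets were seen to differ, so that p is a description. Which transcripts the 2 probe sets cover was not analysed here.

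**Figure D3:**
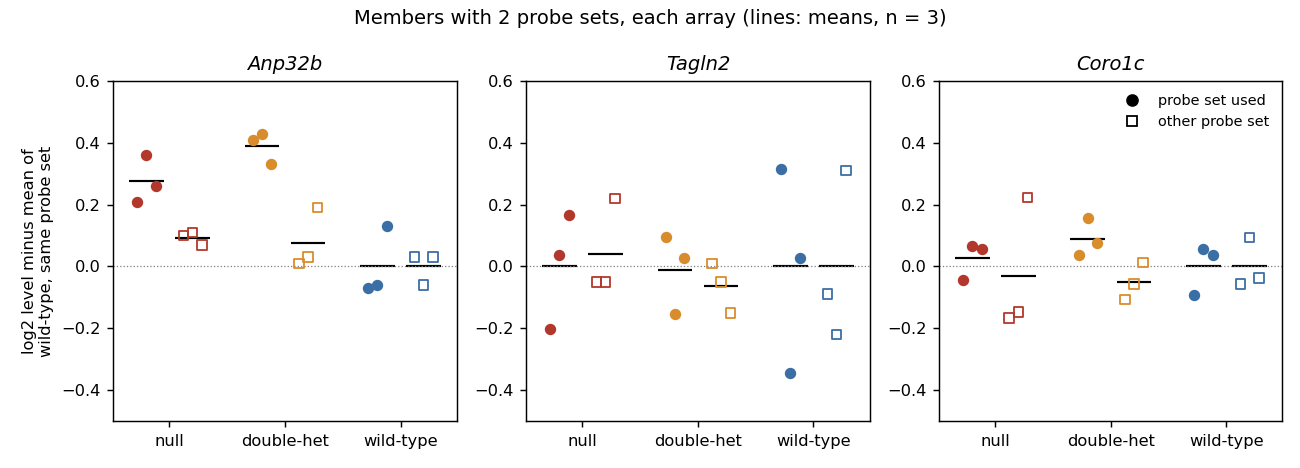
Log2 level of the 3 members with a second probe set, each array relative to the mean of the wild-type arrays for the same probe set. Circles are the probe set used, squares the other one, and lines the means (n = 3). For *Anp32b* the used probe set is 0.28 and 0.39 above wild-type in null and double-heterozygous hearts, and the other one 0.094 and 0.079.

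*Ptma* encodes prothymosin alpha, a small acidic nuclear protein of proliferating cells that binds histones. It had 7.69, 7.53 and 7.63 in null hearts, 7.53, 7.34 and 7.76 in double-heterozygous hearts, and 7.47, 7.20 and 7.53 in wild-type hearts. Null hearts met the top of the wild-type range without passing below it, and double-heterozygous hearts lay on both sides of that top. The log2 difference was 0.22 (SE 0.132, 95% interval -0.08 to 0.51) in null and 0.14 (SE 0.132, -0.15 to 0.44) in double-heterozygous hearts, with adjusted p of 0.912 and 0.726 from limma. A probe set listed for *Ptma* and its pseudogene *Ptma-ps2* together read 10.43, 10.49 and 10.43 in null, 10.60, 10.43 and 10.51 in double-heterozygous, and 10.35, 10.24 and 10.43 in wild-type hearts. In that probe set no mutant heart was below the highest wild-type heart, and its signal cannot be assigned to either gene.

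Wild-type replicate 2 was the lowest heart for *Ptma* (7.20). The proliferation markers (7 of 8 measured) averaged 6.36 in that array, 6.40 to 6.77 in null, 6.86 to 7.01 in double-heterozygous and 7.00 to 7.07 in the other wild-type hearts. In *Anp32b*, wild-type replicates 1, 2 and 3 had 8.22, 8.23 and 8.42 beside proliferation markers of 7.00, 6.36 and 7.07. The part of cell division in either gene was not tested.

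Of 8 listed relatives and partners of these nuclear proteins, 4 were above 0 in null and 4 in double-heterozygous hearts, with medians of 0.017 and -0.043. None passed the adjusted p, and 0 and 1 had an unadjusted p under 0.05. *Anp32a*, the nearest paralogue, averaged 6.15 ± 0.017 in null, 6.13 ± 0.033 in double-heterozygous and 6.10 ± 0.057 in wild-type hearts (SD, n = 3 each). *Anp32e*, a chaperone that removes the histone variant H2A.Z, averaged 5.10, 5.02 and 5.11, and *Ptms*, the prothymosin relative parathymosin, 5.10, 4.95 and 5.05, in null, double-heterozygous and wild-type hearts. The smallest p in the list was that of *Xpo1*, the nuclear export receptor that binds ANP32 proteins, with a log2 difference of 0.27 in double-heterozygous hearts (unadjusted p = 0.0385, adjusted p = 0.440 from limma). *Set*, a histone-binding partner of the ANP32 family, differed there by -0.27 (unadjusted p = 0.186), with 1 heart low, at 3.62, 2.87 and 3.70 in double-heterozygous against 3.71, 3.65 and 3.65 in wild-type hearts.

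Among the actin regulators, *Twf1* encodes twinfilin-1, which binds actin monomers and caps filament ends. Its level was 6.54, 6.63 and 6.96 in null hearts, 6.32, 6.97 and 6.55 in double-heterozygous hearts, and 6.68, 6.57 and 6.50 in wild-type hearts. Null replicate 6 and double-heterozygous replicate 8 stood high, and the rest of the mutant hearts lay around the wild-type range. The log2 difference was 0.12 (SE 0.171, 95% interval -0.26 to 0.51) in null and 0.028 (SE 0.171, -0.36 to 0.41) in double-heterozygous hearts, with adjusted p of 0.954 and 0.969 from limma. A probe set shared by *Twf1* and *Gm4887* spread widely, at 5.63 to 6.59 in null, 6.15 to 6.38 in double-heterozygous and 4.58 to 6.33 in wild-type hearts. Its means were 6.14 ± 0.485, 6.24 ± 0.119 and 5.51 ± 0.878 in the same order (SD, n = 3 each). The groups overlapped, and that signal cannot be assigned to either gene.

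The other twinfilin gene stood apart. *Twf2* encodes twinfilin-2, the second actin-monomer-binding twinfilin of muscle. It had 5.48, 5.34 and 5.73 in null hearts, 5.05, 5.54 and 5.61 in double-heterozygous hearts, and 6.20, 6.49 and 6.48 in wild-type hearts. Every mutant heart was below every wild-type heart, by 0.472 or more. Of all genes, 2.27% were lower without overlap in every mutant heart, 4.63% in null and 7.95% in double-heterozygous hearts. The log2 difference of *Twf2* was -0.88 (SE 0.169, unadjusted p = 0.000512) in null and -0.996 (SE 0.169, unadjusted p = 0.000199) in double-heterozygous hearts, with adjusted p of 0.533 and 0.130 from limma, so that it did not pass the test. Without each array in turn the differences were between -0.98 and -0.79 in null and between -1.10 and -0.82 in double-heterozygous hearts, and over the arrays with Y-linked genes -0.97 and -0.92.

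Within each array the log2 ratio of *Twf1* to *Twf2* was larger in null hearts by 0.999 and in double-heterozygous hearts by 1.02 than in wild-type hearts. Over 6 mutant against 3 wild-type hearts this change had an exact two-sided permutation p of 0.0238, the smallest possible. The pair was picked for this comparison after the values of *Twf2* were seen, so that p is a description.

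*Coro1c* encodes coronin-1C, a filament-binding protein that promotes actin turnover. It was the steadiest member, with all 9 arrays between 6.30 and 6.55. Null hearts had 6.35, 6.46 and 6.45, double-heterozygous hearts 6.43, 6.55 and 6.47, and wild-type hearts 6.30, 6.45 and 6.43, and the 3 groups overlapped. *Coro1c* differed from wild-type by a log2 value of 0.031 (SE 0.087, 95% interval -0.17 to 0.23) in null and 0.091 (SE 0.087, -0.11 to 0.29) in double-heterozygous hearts, so a change above 1.17-fold in null and 1.22-fold in double-heterozygous hearts lay outside the intervals. Its second probe set, near 4.9, differed by -0.032 and -0.052. *Coro1a*, the coronin of blood cells, was at 3.69, 3.65 and 3.62 in double-heterozygous and 3.91, 4.07 and 4.20 in wild-type hearts, a log2 difference of -0.40 (unadjusted p = 0.00269, adjusted p = 0.235 from limma), and at 3.91 to 4.06 in null hearts. The leukocyte markers (8 of 8 measured) averaged 3.28 to 3.42 in double-heterozygous, 3.47 to 3.66 in null and 3.59 to 3.89 in wild-type hearts, and the part of blood cells in *Coro1a* was not tested.

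*Tagln2* encodes transgelin-2, an actin-bundling relative of the smooth muscle protein transgelin. It read 8.30, 8.54 and 8.67 in null hearts, 8.60, 8.35 and 8.53 in double-heterozygous hearts, and 8.82, 8.16 and 8.53 in wild-type hearts. The wild-type hearts held both the highest and the lowest of the 9 values, and the means were 8.50, 8.49 and 8.50 in null, double-heterozygous and wild-type hearts. The log2 difference was -0.003 (SE 0.171, 95% interval -0.39 to 0.38) in null and -0.012 (SE 0.171, -0.40 to 0.37) in double-heterozygous hearts. The highest wild-type heart, replicate 1, is the one with *Xist*, and without it the differences were 0.155 and 0.146. The second *Tagln2* probe set averaged 7.46, 7.36 and 7.42 in null, double-heterozygous and wild-type hearts. *Tagln*, transgelin itself and a smooth muscle marker, had 4.95, 5.01 and 5.12 in null, 5.10, 4.91 and 4.75 in double-heterozygous, and 5.26, 4.54 and 4.34 in wild-type hearts. Replicate 1 was the highest of all 9 hearts in *Tagln* as it was in *Tagln2*.

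Of 23 further actin regulators, 13 lay above 0 in null and 10 in double-heterozygous hearts, with medians of 0.032 and -0.057. None passed the adjusted p in either comparison, and 1 in null and 3 in double-heterozygous hearts had an unadjusted p under 0.05. Besides *Twf2* and *Coro1a*, the smallest p in double-heterozygous hearts was that of *Wdr1*, which speeds filament disassembly with cofilin, at a log2 difference of -0.25 (unadjusted p = 0.0382, adjusted p = 0.439 from limma). In null hearts *Cap2*, a cyclase-associated actin protein of heart muscle, followed *Twf2* at 0.25 (unadjusted p = 0.0688, adjusted p = 0.903 from limma).

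**Figure D4:**
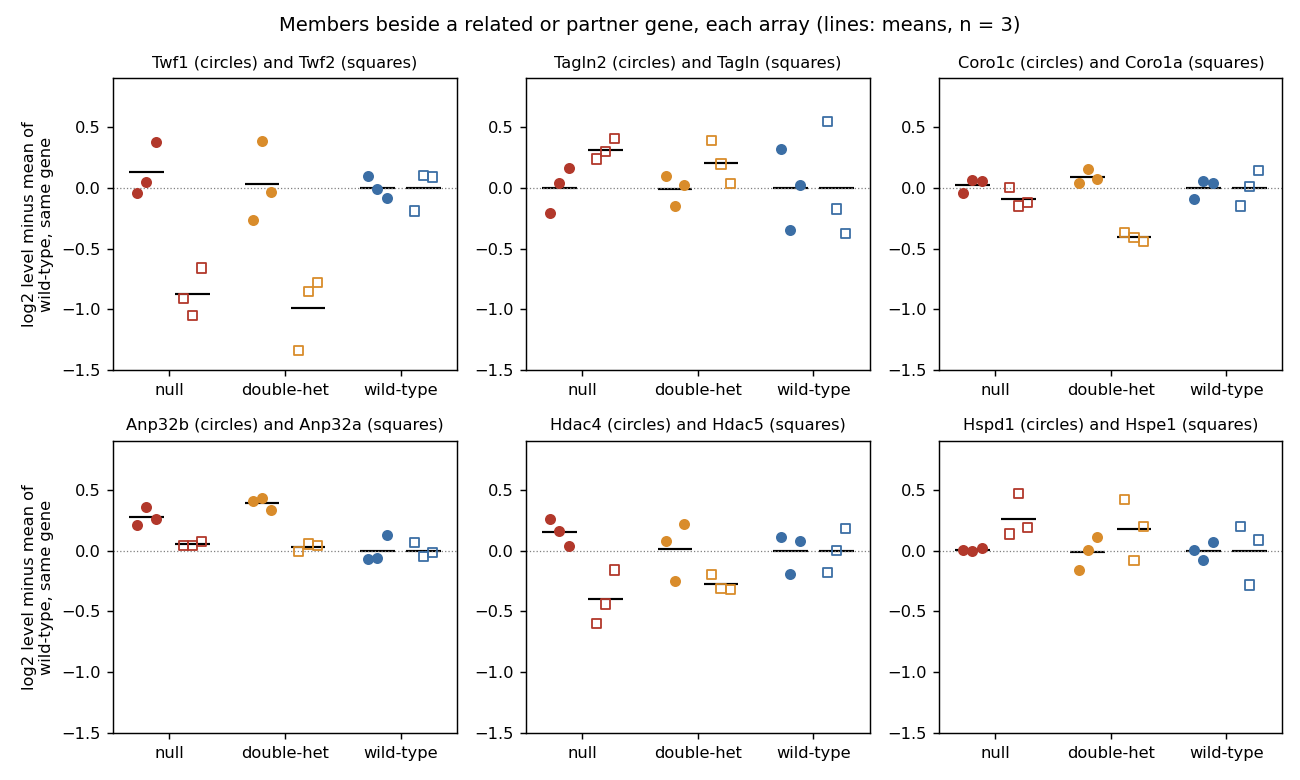
Log2 level of 6 members (circles) and a paralogue or partner of each (squares) in every array, relative to the wild-type mean of the same gene, with lines at the means (n = 3). *Twf2* lies 0.88 and 0.996 below wild-type in null and double-heterozygous hearts, whereas *Twf1* lies 0.12 and 0.028 above it.

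*Hdac4* encodes a class IIa histone deacetylase that binds MEF2 factors and represses muscle genes. It had 5.26, 5.16 and 5.04 in null hearts, 5.08, 4.75 and 5.22 in double-heterozygous hearts, and 5.11, 4.81 and 5.08 in wild-type hearts. In each genotype the hearts overlapped with those of the other 2. *Hdac4* differed from wild-type by 0.15 on the log2 scale (SE 0.140, 95% interval -0.16 to 0.47) in null and 0.020 (SE 0.140, -0.30 to 0.34) in double-heterozygous hearts, with adjusted p of 0.930 and 0.973 from limma. The other class IIa genes, MEF2 factors and the class I deacetylase *Hdac3*, which works in complexes with class IIa enzymes (7 of 10 listed were measured), were mostly below 0, 5 of 7 in null with a median of -0.083 and 6 of 7 in double-heterozygous hearts with a median of -0.14. None passed the adjusted p, and 1 in each comparison had an unadjusted p under 0.05. *Hdac5*, the closest in role, had 4.27, 4.43 and 4.71 in null, 4.67, 4.56 and 4.55 in double-heterozygous, and 4.69, 4.87 and 5.05 in wild-type hearts. Its log2 difference was -0.40 in null (unadjusted p = 0.0150, adjusted p = 0.868 from limma) and -0.28 in double-heterozygous hearts (unadjusted p = 0.0688, adjusted p = 0.508 from limma). *Mef2d*, a MEF2 factor of postnatal heart, had 6.46, 6.41 and 6.60 in double-heterozygous and 7.16, 6.73 and 6.80 in wild-type hearts, a difference of -0.41 (unadjusted p = 0.00927, adjusted p = 0.332 from limma), and 6.73 to 6.89 in null hearts.

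*Hspd1* encodes the mitochondrial chaperonin Hsp60, which folds imported proteins in a cage closed by Hsp10, the product of *Hspe1*. It had 9.02, 9.01 and 9.04 in null hearts, 8.86, 9.02 and 9.13 in double-heterozygous hearts, and 9.02, 8.94 and 9.09 in wild-type hearts. The null hearts lay within the wild-type range and the double-heterozygous hearts on both sides of it. *Hspd1* differed from wild-type by a log2 value of 0.007 (SE 0.096, 95% interval -0.21 to 0.22) in null and -0.010 (SE 0.096, -0.23 to 0.21) in double-heterozygous hearts, so a change above 1.17-fold in null and 1.15-fold in double-heterozygous hearts lay outside the intervals. *Hspe1* averaged 8.38 ± 0.177 in null, 8.29 ± 0.252 in double-heterozygous and 8.11 ± 0.255 in wild-type hearts (SD, n = 3 each), and the groups overlapped. Of 10 mitochondrial chaperones and proteases, 6 lay below 0 in null and 9 in double-heterozygous hearts, with medians of -0.038 and -0.145. None passed the adjusted p, and 0 and 1 had an unadjusted p under 0.05. The lowest p was that of *Clpx*, the unfoldase of the ClpXP protease, with log2 differences of -0.23 in null (unadjusted p = 0.0515, adjusted p = 0.880 from limma) and -0.27 in double-heterozygous hearts (unadjusted p = 0.0287, adjusted p = 0.408 from limma) and no overlap with wild-type in either.

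*G6pdx*, glucose-6-phosphate dehydrogenase, opens the pentose phosphate pathway, and in its place 7 of 8 other listed enzymes of that pathway were measured. In null hearts 3 lay above 0 and 4 below, with a median of -0.013, and in double-heterozygous hearts 1 above and 6 below, with a median of -0.094. None had an unadjusted p under 0.05. *Pgd*, the next oxidative enzyme of the pathway, had log2 differences of 0.084 and -0.103 in null and double-heterozygous hearts, and *Taldo1*, the transaldolase, had the smallest p in double-heterozygous hearts (-0.25, unadjusted p = 0.0740, adjusted p = 0.516 from limma).

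*Bdnf* encodes brain-derived neurotrophic factor, a secreted ligand of the receptor TrkB. Its signal was near background, at 1.95, 1.74 and 1.55 in null hearts, 1.81, 2.00 and 1.81 in double-heterozygous hearts, and 1.80, 1.81 and 1.81 in wild-type hearts. The upper quartile of 1394 olfactory and vomeronasal receptor genes, which hearts are not known for, was 1.78, 1.95 and 1.74 in the same order. The log2 difference of -0.057 (95% interval -0.32 to 0.20) in null and 0.068 (-0.19 to 0.33) in double-heterozygous hearts therefore says little of the RNA. All 6 other neurotrophin and receptor genes measured, of 9 listed, lay above 0 in null and 4 in double-heterozygous hearts. None passed the adjusted p, and 2 and 0 had an unadjusted p under 0.05. *Sort1*, the sorting receptor sortilin that binds the BDNF precursor, had 6.22, 6.04 and 6.01 in null, 5.84, 5.84 and 6.05 in double-heterozygous, and 5.86, 5.83 and 5.62 in wild-type hearts, a difference of 0.33 in null (unadjusted p = 0.0157, adjusted p = 0.868 from limma). Of the other 5, *Ntf5* (1.10 to 1.72 over all arrays), *Ngfr* (1.27 to 2.21) and *Ntrk2* (1.43 to 2.20) lay about as low as *Bdnf*, so their signs say little.

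The 2 mutant genotypes were also compared with each other, double-heterozygous against null hearts. No member passed the adjusted p or the study's thresholds, and none had an unadjusted p under 0.05, where 0%, 0.302% and 7.39% of all genes were called. The differences lay between 0.911-fold (*Hdac4*) and 1.09-fold (*Bdnf*), with 3 members above and 5 below 0. *Anp32b* was 0.11 higher in double-heterozygous hearts (95% interval -0.10 to 0.32, adjusted p = 0.813 from limma), and the hearts of the 2 genotypes overlapped.

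Other genes reported as *miR-1* targets, 33 of 35 listed with a measurement, gave no call either. In null hearts 24 of 33 lay above 0 with a median of 0.064, and in double-heterozygous hearts 14 of 33 with a median of -0.06. At an unadjusted p under 0.05, which 5.72% of all genes passed in null and 10.6% in double-heterozygous hearts, 3 were higher and 1 lower in null, and 1 was higher and 3 lower in double-heterozygous hearts. Against wild-type, 3.63% of all genes were higher and 4.63% lower without overlap in null, and 5.15% and 7.95% in double-heterozygous hearts. Of the 33, 5 were higher and 2 lower without overlap in null, and 1 was higher and 3 lower in double-heterozygous hearts. Set against each other, double-heterozygous less null, 8 lay above 0 and 25 below, with a median of -0.12 against -0.018 over all genes, 4 were lower at an unadjusted p under 0.05 and 10 were lower without overlap. Over all genes in that comparison, 7.39% passed the unadjusted p in either direction and 5.75% were lower without overlap. *Sri*, the calcium-binding protein sorcin of cardiac excitation, was, like *Anp32b*, higher in every mutant heart, at 7.09, 6.99 and 7.13 in null and 7.10, 7.14 and 7.06 in double-heterozygous against 6.89, 6.86 and 6.79 in wild-type hearts. Its log2 differences were 0.22 and 0.26, with adjusted p of 0.871 and 0.344 from limma. *Ccnd1*, which encodes cyclin D1, was at 6.29, 6.43 and 6.57 in null hearts, above the double-heterozygous hearts (5.77, 6.14 and 6.08) and the wild-type hearts (5.82, 6.11 and 6.05). Its difference from wild-type was 0.44 in null (adjusted p = 0.771 from limma) and 0.005 in double-heterozygous hearts, and double-heterozygous less null hearts it was -0.43 (unadjusted p = 0.00923, adjusted p = 0.561 from limma). *Ets1*, a transcription factor of endothelial and immune cells, was lower in every mutant heart, with 5.57, 5.65 and 5.71 in null and 5.56, 5.46 and 5.61 in double-heterozygous against 5.93, 6.11 and 5.90 in wild-type hearts. Its differences were -0.34 and -0.44, with adjusted p of 0.752 and 0.189 from limma, beside endothelial markers (7 of 7 measured) that averaged 6.41 to 6.59 in null, 6.34 to 6.49 in double-heterozygous and 6.51 to 6.60 in wild-type hearts, and their part was not tested. *Mylk*, myosin light chain kinase of smooth muscle, was at 3.38, 3.36 and 3.31 in double-heterozygous and 3.55, 3.65 and 3.66 in wild-type hearts (difference -0.27, adjusted p = 0.327 from limma). In null hearts *Mylk* was at 3.50, 3.49 and 3.50, also below every wild-type heart (difference -0.12, adjusted p = 0.912 from limma). *Gja1*, the gap junction protein of ventricular muscle, differed by 0.38 in null hearts (adjusted p = 0.871 from limma).

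Markers of cell types that a heart can hold differed in both directions, and none passed the adjusted p. The smooth muscle markers (7 of 7 measured) averaged 6.09 to 6.22 in null, 6.04 to 6.25 in double-heterozygous and 5.61 to 6.10 in wild-type hearts. *Cnn1*, the calponin of smooth muscle, had 7.07, 7.63 and 7.15 in null hearts, 7.46, 6.93 and 7.80 in double-heterozygous hearts, and 6.55, 5.57 and 5.52 in wild-type hearts. Every mutant heart was above every wild-type heart, and the differences of 1.41 and 1.52 met the study's criteria (unadjusted p = 0.00128 and 0.000757, adjusted p = 0.630 and 0.169 from limma). *Acta2*, smooth muscle actin, was 0.78 and 0.73 higher, also without overlap (unadjusted p = 0.0062 and 0.00923, adjusted p = 0.752 and 0.332 from limma). Not all 7 markers rose, with 3 below 0 in null and 2 in double-heterozygous hearts. *Des* was lower without overlap in both, at -0.11 and -0.23 (unadjusted p = 0.197 and 0.0199, adjusted p = 0.912 and 0.376 from limma). *Myh11* differed by -0.076 and -0.083, with overlap.

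Of the 14 heart muscle markers, *Myh7*, the slow myosin heavy chain, was at a difference of -1.07 in null hearts and of -0.86 in double-heterozygous hearts (unadjusted p = 0.0165 and 0.0422, adjusted p = 0.868 and 0.452 from limma), and *Myl7*, the atrial light chain, by 0.22 in both without overlap (unadjusted p = 0.0374 and 0.0366, adjusted p = 0.872 and 0.433 from limma). In double-heterozygous hearts 3 of 8 fibroblast markers were lower at an unadjusted p under 0.05 (*Tcf21*, *Pdgfra* and *Dcn*, *Tcf21* by -0.55 with an adjusted p of 0.224 from limma), as were 1 of 7 endothelial markers (*Kdr*), 5 of 8 leukocyte markers (*Mrc1* by -0.50, adjusted p = 0.248 from limma) and 1 of 8 brown fat markers (*Ppargc1a*). In null hearts 1 endothelial (*Cdh5*), 2 leukocyte (*Mrc1* and *Fcgr1*) and 2 proliferation markers (*Rrm2* and *Ccna2*) were lower by that measure. Of all genes, 10.6% in double-heterozygous and 5.72% in null hearts passed that p in either direction, so single markers are few counts to read. The glial gene *Sox10*, of 6 neuron and glia markers measured, was dim but higher without overlap in both, by 0.50 and 0.45 (unadjusted p = 0.000663 and 0.00131, adjusted p = 0.533 and 0.193 from limma). Not all 6 rose, with 4 above and 2 below 0 in each comparison. Higher without overlap were 1 of them in null and 2 in double-heterozygous hearts. None of the 4 erythroid markers measured had an unadjusted p under 0.05. The brown fat markers averaged 4.79 in wild-type replicate 1, against 4.48 and 4.25 in replicates 2 and 3. *Ppargc1a* was also highest in replicate 1, at 8.247 against 7.435 and 7.307. The part of these cell types in the members' values was not tested.

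The standard deviation of members within genotypes was 0.067 for *Coro1c*, 0.085 for *Anp32b* and 0.090 for *Hspd1*, and 0.234 for both *Twf1* and *Tagln2*. Among 11090 genes with a level at or above the median of all genes, the gene most like *Anp32b* over the 9 arrays was *Snrnp48* (r = 0.964), followed by *Rrnad1* (r = 0.922). *Tagln2* was most like *Dnm1l* (r = 0.978) and *Rnf141* (r = 0.944), and *Hspd1* most like *Nsfl1c* (r = 0.983) and *Timm13* (r = 0.915). *Coro1c* was nearest to *Tvp23b* (r = 0.984) and *Foxp3* (r = 0.928), *Hdac4* to *Cystm1* (r = 0.963) and *Fbxw17* (r = 0.932), and *Ptma* to *Zfp445* and *Cct6a* (r = 0.959 each). *Twf1* was nearest to *Depdc1b* (r = 0.952) and *Plcb3* (r = 0.928), and *Bdnf* to *Ccer2* (r = 0.900) and *4930447N08Rik* (r = 0.898). These are Pearson correlations over 9 arrays that share their normalization, the best of a search, given as a description.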

How the data were processed

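The authors isolated RNA with TRIzol and a column against genomic DNA, amplified it with the NuGen Ovation Pico WTA v2 system, hybridized biotin-labelled product to Affymetrix mouse Gene ST arrays and normalized all arrays by RMA. The deposited values are log2 levels per probe set. The submitters' processing notes name Affymetrix Power Tools 1.12.0, and a genome build for the array was not given in the sources used here. Gene names came from GEO's platform annotation, updated by gene ID through RefSeq (GRCm38.p6). Of 41345 probe sets, 23521 had 1 symbol (23328 matched by gene ID), 1820 several and 16004 none. Where a gene had several such probe sets the brightest on average was used, which left 22180 genes, with no filter on dim genes. RMA makes the arrays' distributions alike and compresses dim signals.

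One limma model (limma 3.58.1, R 4.3.3) estimated the 3 genotype means from all 9 arrays, and the threshold was an adjusted p of 0.05 (Benjamini-Hochberg, all genes). The fit was tested on simulated data. Exact permutation tests used SciPy 1.17.1, for 8 members and 5 tests each. Figures used matplotlib 3.10.9 (Python 3.11.15). Members and 16 further gene lists were chosen with earlier results of these data known. All members are named, as are, of each list, genes that met the study's criteria and some (3 at most) of those with the smallest p in each comparison with wild-type, paralogues of members, and the 2 genes most like each member. Alternatives were normalization, probe sets, variance moderation, arrays in the fit, the methods' t-test, a filter on dim genes, array weights, sex and leaving out arrays. No 2 arrays shared more than 6.92% equal values (tolerance 1e-06). Replicate numbers run serially over the arrays and litters are not labelled, so no pairing was used.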

Additional observations from a re-analysis of the deposited data

How the results depend on the processing

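No member passed an adjusted p of 0.05 under any of the alternatives run. The lowest adjusted p was 0.648 in null and 0.114 in double-heterozygous hearts, both for *Anp32b* with trend and robust moderation, and its adjusted p over the alternatives reached 0.975 and 0.773. Of 162 alternative values of members in each comparison of 2 genotypes, 142 kept their sign in null, 145 in double-heterozygous hearts and 146 in the direct comparison, and 66 of 80 for both mutant genotypes against wild-type. The others changed sign, all for differences whose intervals include 0. The cause was not tested. The number of arrays limits the precision, and the signal of *Bdnf* is near background. No paired analysis was possible because litters are not labelled.

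The members' median was 0.164 in null hearts with Y-linked arrays only, 0.114 in double-heterozygous hearts after a further quantile normalization and 0.051 in the direct comparison with Y-linked arrays only. Without each array in turn it was 0.029 to 0.164, 0.031 to 0.110 and -0.047 to 0.051. The count of 1 member (*Anp32b*) at an unadjusted p under 0.05 in null hearts was 0 with the mean of a gene's probe sets and with Y-linked arrays only, and 0 to 1 without each array (0 without wild-type replicate 1 or null replicate 5).

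Null against wild-type: *Tagln2* was 0.010 (quantile), 0.001 (cyclic loess), 0.020 (mean of probe sets), 0.102 (sex as a covariate), 0.155 (Y-linked arrays) and 0.042 (other probe set), *Coro1c* 0.000, -0.006, -0.014 and -0.032 (mean of probe sets, sex, Y-linked arrays, other probe set), and *Hspd1* -0.002 (median centring) and -0.027 (sex). Without each array, *Twf1* was -0.002 to 0.208, *Tagln2* -0.176 to 0.155, *Coro1c* -0.014 to 0.065, *Hspd1* -0.032 to 0.043 and *Bdnf* -0.159 to 0.041.

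Double-heterozygous against wild-type: with quantile, cyclic loess and Y-linked arrays, *Tagln2* was 0.065, 0.049 and 0.094 and *Hspd1* 0.059, 0.042 and 0.064, and *Coro1c* was -0.052 with the other probe set. Without each array, *Twf1* was -0.149 to 0.172, *Tagln2* -0.184 to 0.146, *Hdac4* -0.081 to 0.152 and *Hspd1* -0.073 to 0.061.

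Double-heterozygous against null: *Twf1* was 0.048 (Y-linked arrays), *Tagln2* 0.055 and 0.048 (quantile, cyclic loess), *Anp32b* -0.016 and *Coro1c* -0.021 (other probe set), and *Hspd1* 0.021, 0.034, 0.017 and 0.054 (quantile, cyclic loess, sex, Y-linked arrays). Without each array, *Twf1* was -0.273 to 0.048, *Tagln2* -0.112 to 0.077, *Ptma* -0.181 to 0.025 and *Hspd1* -0.080 to 0.054.

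Both mutant genotypes against wild-type: with Y-linked arrays only *Tagln2* was 0.125 and *Hspd1* 0.037. Without each array, *Twf1* was -0.012 to 0.148, *Tagln2* -0.180 to 0.151, *Hdac4* -0.008 to 0.153, *Hspd1* -0.040 to 0.034 and *Bdnf* -0.045 to 0.055.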
